A study of Mus musculus with 9 samples.

Results

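The acute phase response was followed through 8 genes: Saa3, Lcn2, Hp, Serpina3n, Lbp and Ptx3, which encode secreted proteins, and Cebpb and Cebpd, which encode transcription factors. They were taken by symbol from the deposited count table, and all 8 were found among its 27370 genes, each on 1 row. All 8 also passed the filter on low counts, which left 15103 genes to test. The cells were sorted mouse stromal cells in 3 groups of 3 libraries. Fibroblastic reticular cells (FRC), the stromal network cells of lymph nodes, came from untreated mice and were sorted as tdTomato-negative. Red pulp fibroblasts (RPF) of the spleen, sorted as tdTomato-positive, came from untreated mice (steady state) or from mice given diphtheria toxin (depleted state). Mice of every group, controls included, were 4 months old and carried Wt1CreERT2, RosatdTomato and CD64DTR. Wt1CreERT2 places a tamoxifen-dependent recombinase under the control of Wt1, and RosatdTomato marks red the cells in which it has acted. CD64DTR places the toxin receptor under the control of CD64, a receptor of macrophages. Each library pooled 2 mice, so a library is the unit of replication and p-values measure the spread between pools. No group of toxin-treated mice without the receptor was used here, so the toxin and the loss of macrophages cannot be told apart. The FRC and steady-state RPF groups also differ in organ and in the tdTomato gate, which cannot be told apart either.

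Acute phase proteins are secreted proteins whose production rises in infection, injury and inflammation, mostly in the liver but also in stromal and epithelial cells. Interleukin-1, tumour necrosis factor and interleukin-6 family cytokines induce them through NF-kB and STAT3. C/EBP beta and C/EBP delta, the products of Cebpb and Cebpd, are leucine zipper factors that are themselves induced by these signals and bind the promoters of many acute phase genes. In lymphoid organs, reticular fibroblasts are a known source of cytokines and chemokines that hold and guide immune cells.

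Promoter sequences are shown because the set holds both C/EBP factors and genes known as their targets. Whether these factors had a part in the changes was not tested. RefSeq windows from 250 bases before to 50 bases after the gene start (GRCm38.p6) were found for 5 of the 8 genes: Saa3, Lcn2, Serpina3n, Ptx3 and Cebpb. Both strands were searched for a C/EBP motif (TTGCNNAA), an NF-kB motif (GGG, any 3 bases, then TTCC), a STAT motif (TTCNNNGAA) and an AP-1 motif (TGANTCA). Of 32851 promoter windows, 10.8% held the C/EBP motif, 5.56% the NF-kB motif, 8.3% the STAT motif and 7.81% the AP-1 motif. The C/EBP motif was matched once each in Saa3, Lcn2 and Ptx3, the NF-kB motif once in Serpina3n, and no motif was matched in the Cebpb window. A match is a description of letters and not a bound site. The 4 windows with a match are printed 5′ to 3′ on the strand of the gene, with the match in capitals and without bases annotated as untranslated region. In Saa3 and Ptx3 the match is to the reverse complement of the motif.
Saa3, chr7:46715701-46715926, minus strand: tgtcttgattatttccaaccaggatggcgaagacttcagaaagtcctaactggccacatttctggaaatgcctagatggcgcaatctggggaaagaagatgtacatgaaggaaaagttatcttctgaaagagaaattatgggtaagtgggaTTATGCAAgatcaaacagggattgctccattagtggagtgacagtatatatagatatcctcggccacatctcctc
Lcn2, chr2:32387798-32387989, minus strand: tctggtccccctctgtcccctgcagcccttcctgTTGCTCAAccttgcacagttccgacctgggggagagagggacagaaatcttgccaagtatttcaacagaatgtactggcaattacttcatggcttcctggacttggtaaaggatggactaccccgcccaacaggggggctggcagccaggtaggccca
Serpina3n, chr12:104406458-104406707, plus strand: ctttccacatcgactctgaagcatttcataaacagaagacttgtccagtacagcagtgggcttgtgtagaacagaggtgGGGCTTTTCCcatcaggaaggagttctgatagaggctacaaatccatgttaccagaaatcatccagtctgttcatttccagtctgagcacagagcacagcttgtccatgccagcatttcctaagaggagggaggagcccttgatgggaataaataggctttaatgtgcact
Ptx3, chr3:66219637-66219886, plus strand: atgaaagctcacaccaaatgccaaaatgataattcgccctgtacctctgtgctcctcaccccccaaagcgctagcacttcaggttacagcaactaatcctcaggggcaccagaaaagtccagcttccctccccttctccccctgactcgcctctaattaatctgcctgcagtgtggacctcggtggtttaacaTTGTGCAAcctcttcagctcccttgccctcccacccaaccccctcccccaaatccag
The match lies 99 to 92 bases before the start in Saa3, 216 to 209 in Lcn2, 171 to 162 in Serpina3n and 57 to 50 in Ptx3. The RefSeq start of Lcn2 falls inside the span that the deposited table gives for the gene. The whole stretch printed for Lcn2, with its match, also lies inside that span, so it is not upstream of the gene as deposited.

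Total counts per library ran from 25414645 in steady-state RPF replicate 3 to 43879806 in FRC replicate 3. Levels below are TMM-normalised CPM, counts scaled to library size, and group values are means ± SD of 3 libraries. Wt1, which controls the recombinase behind the reporter, stood at 1.64 ± 1.18 CPM in FRC, 62.1 ± 2.57 in steady-state RPF and 34.3 ± 6.55 in depleted RPF. Pdpn, the gene of the sort marker gp38, was at 74.1 CPM in FRC and at 0.0981 and 0.0733 in the steady-state and depleted RPF. Fcgr1, which encodes CD64, had 130 counts over the 3 steady-state RPF libraries and 0 over the 3 depleted ones. Counts of 4 Y-linked genes were 0 in FRC replicate 1 and 1 in steady-state RPF replicate 1, against 2285 to 6101 in the other 7 libraries, so the sexes of the pools differed within 2 groups. A gene counts as called where edgeR's quasi-likelihood test, adjusted by Benjamini-Hochberg over all 15103 genes, gave a p under 0.05. The same tool gives every adjusted p below unless another is named.

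After macrophage depletion, 5 of the 8 genes rose in RPF: Saa3, Lcn2, Serpina3n, Cebpb and Cebpd. The called share in that direction over all tested genes was 11.1%. The members and the gene lists below were chosen with earlier results of these data known. Shares over all genes are thus set beside them as a description, not as a test. None of the 8 was called lower, against 9.96% of all tested genes, and none was lower at an unadjusted p under 0.05 or in DESeq2 or limma-voom. For the same 5 genes all depleted libraries lay above all steady-state ones, as they did for 21.4% of all tested genes, and for no member did they all lie below (23% of all genes). The median log2 fold change was 2.15 over the 8 genes and -0.0933 over all tested genes. Steady-state RPF stood below FRC for 5 of the 8 genes by the same test: Saa3, Serpina3n, Ptx3, Cebpb and Cebpd, against 14.4% of all genes called lower. No member was called higher in steady-state RPF than in FRC, against 11.5% of all genes, and none was higher at an unadjusted p under 0.05 or in DESeq2 or limma-voom. For 7 of the 8, all but Lcn2, the steady-state RPF libraries lay below all FRC libraries, against 23.1% of all genes, and for no member did they lie above (21.5% of all genes). The median log2 difference was -2.47 over the 8 genes and -0.0218 over all.

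Depleted RPF set beside FRC gave a further view, which shares its libraries with the comparisons above and is not independent of them. Lcn2 was called higher, against 16.9% of all genes, and Saa3, Hp, Serpina3n and Ptx3 lower, against 18.8%. Its depleted libraries lay above all FRC libraries for Lcn2, against 24.5% of all genes, and below them for 5 members, the 4 called ones and Lbp, against 25.8%. Cebpb and Cebpd were not called. By level, the members followed several orders. Saa3 and Serpina3n ran from FRC through depleted RPF to steady-state RPF, with every step called. Cebpb and Cebpd were high in FRC and depleted RPF and low in steady-state RPF. Lcn2 was high in depleted RPF alone among the 3 groups, and Hp, Lbp and Ptx3 had their highest mean in FRC.

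**Figure D1:**
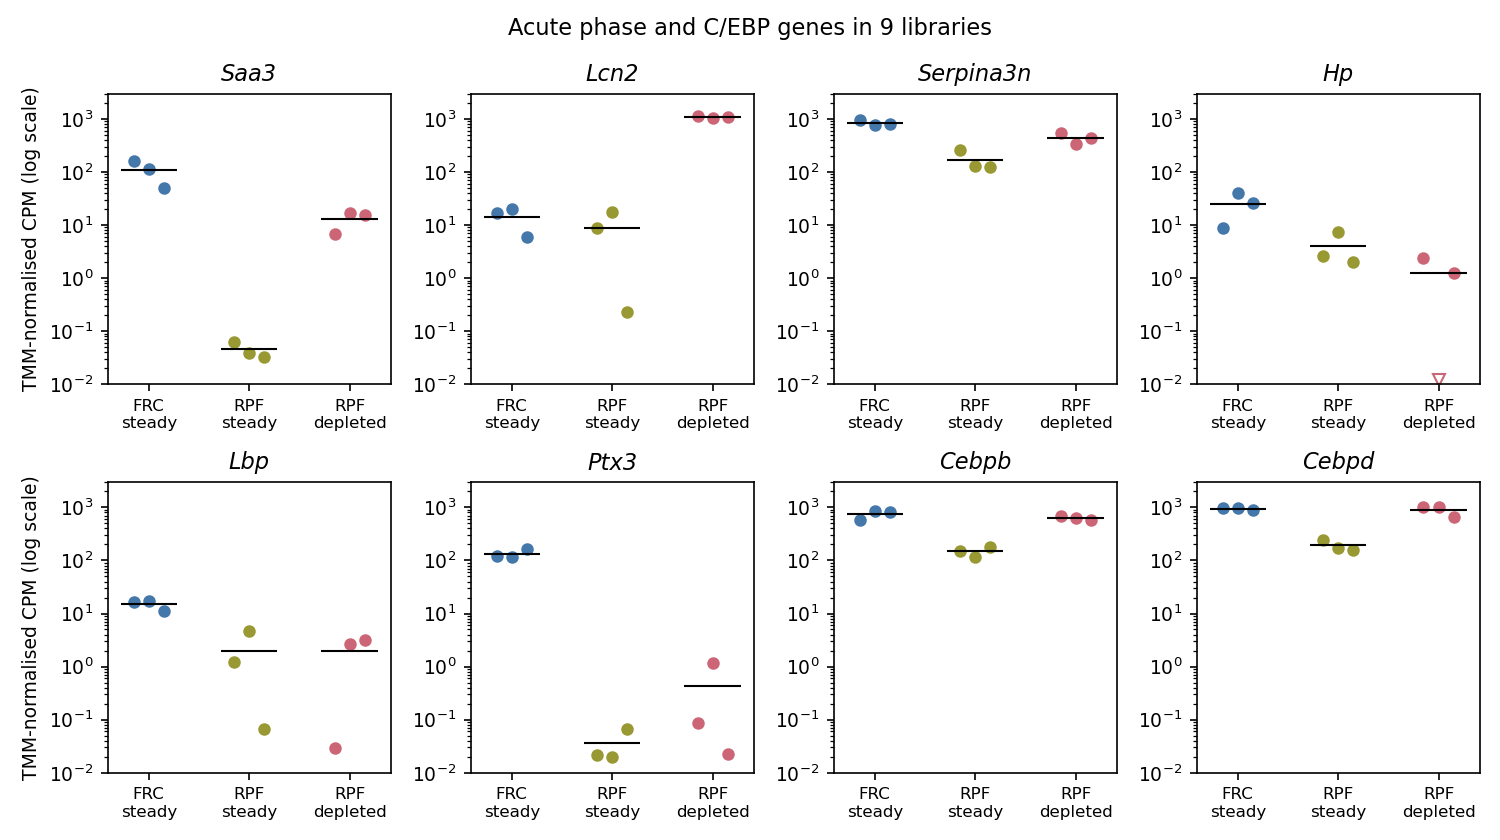
TMM-normalised CPM of the 8 genes in each of the 9 libraries, on a log axis, with 1 panel per gene. Points are libraries, the bars are group means, and the open triangle for Hp is a library with 0 counts. Saa3, Lcn2, Serpina3n, Cebpb and Cebpd show the 3 depleted RPF libraries above all 3 steady-state RPF libraries.

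Lcn2 (ENSMUSG00000026822, chromosome 2, 32384633 to 32388252) encodes lipocalin 2, which binds bacterial siderophores and so withholds iron. In depleted RPF it stood at 1149, 1029 and 1105 CPM. In steady-state RPF the 3 libraries held 8.69, 17.6 and 0.232 CPM, and in FRC 16.8, 20.3 and 5.88. The depleted libraries were alike and far above the 6 others, while FRC and steady-state RPF overlapped. Means were 1094 ± 60.9 CPM in depleted RPF, 8.85 ± 8.70 in steady-state RPF and 14.3 ± 7.52 in FRC. The rise after depletion was 6.94 on the log2 scale (SE 1.16, adjusted p = 0.003), or 122-fold. The size of this rise rests in part on single steady-state libraries, with 7.90 on the log2 scale without replicate 2 and 6.37 without replicate 3, and it was 7.87 with limma-voom. Against FRC, depleted RPF stood 6.26 higher (SE 1.13, adjusted p = 0.00254), or 76.5-fold. Steady-state RPF and FRC were not told apart, with a log2 difference of -0.679, a 95% interval of -2.76 to 1.40 and an adjusted p of 0.657. Per kilobase of transcript, Lcn2 in depleted RPF reached 1261 CPM, above 99.5% of tested genes, compared with 53.3% in steady-state RPF and 60.9% in FRC.

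Lcn2 is also a granule protein of neutrophils, so the summed level of 14 neutrophil marker genes is given beside it. That sum was 100.1, 367 and 52.8 CPM in the steady-state RPF libraries, 50.1, 7.37 and 2.74 in the depleted ones and 18.5, 15.2 and 22.6 in FRC. Its largest parts in steady-state RPF were Ngp at 56.6 CPM and Mpo at 44.7 CPM, which stood at 6.66 and 4.59 in depleted RPF. Cxcr2 had 0 counts in both RPF groups, and Csf3r, Cebpe and Fcnb had 0 counts in depleted RPF. Ly6g went the other way, with 8 counts over the steady-state RPF libraries and 15 over the depleted ones. Still detected in depleted RPF were S100a8, with 226 counts against 812 at steady state, and Retnlg, with 8 against 10. All 3 depleted sums lay below all 3 steady-state sums (exact two-sided permutation test, p = 0.1, the smallest that 3 against 3 libraries can give). Depleted RPF, where Lcn2 was highest, thus held the lower neutrophil sums. Among the steady-state libraries the sum and Lcn2 shared their order, with replicate 2 highest and replicate 3 lowest, and the part of these cells in the steady-state values was not tested.

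Saa3 (ENSMUSG00000040026, chromosome 7, 46711998 to 46715700) encodes a serum amyloid A made mostly outside the liver. FRC held 158, 116 and 48.8 CPM and depleted RPF 6.78, 16.6 and 15.2. Steady-state RPF had 3, 2 and 1 counts, or 0.0639, 0.0395 and 0.0331 CPM. The 3 groups did not overlap, and means were 108 ± 55.2, 12.9 ± 5.31 and 0.0455 ± 0.0162 CPM in that order. Saa3 rose after depletion by 8.01 on the log2 scale (SE 0.698, adjusted p = 0.000107). With so few steady-state counts the fold is loosely set: the ratio of scaled counts was 280, with a 95% counting interval of 128 to 764 that covers counting error only. With limma-voom the adjusted p of this rise was 0.056. Steady-state RPF against FRC gave a log2 difference of -11.1 (SE 0.744, adjusted p = 1.03e-05). The ratio of FRC to steady-state RPF was 2280 (counting interval 1050 to 6210). Depleted RPF stood 8.37-fold below FRC (log2 difference -3.06, SE 0.479, adjusted p = 0.00115). The liver relatives of Saa3 were scarce: Saa1 had 72 counts and Saa2 6 over the FRC libraries, and both had 0 in every RPF library.

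Serpina3n (ENSMUSG00000021091, chromosome 12, 104406729 to 104414329) encodes a secreted inhibitor of serine proteases. Its libraries held 961, 755 and 791 CPM in FRC, 254, 132 and 122 in steady-state RPF, and 552, 342 and 433 in depleted RPF. No 2 groups overlapped, and steady-state RPF replicate 1 stood apart above the other steady-state libraries. The mean rose from 169 ± 73.7 CPM at steady state to 442 ± 106 after depletion, a log2 change of 1.39 (SE 0.294, adjusted p = 0.01) or 2.61-fold. FRC, at 835 ± 110 CPM, stood 4.94-fold above steady-state RPF (log2 difference -2.30 for RPF, SE 0.302, adjusted p = 0.000558). Depleted RPF stood 1.89-fold below FRC (log2 difference -0.918, SE 0.291, adjusted p = 0.0362). That last call was lost in 6 of 19 alternatives, with adjusted p of 0.191 by library sizes alone and 0.0556 to 0.12 when FRC replicate 1, 2 or 3 or depleted replicate 2 or 3 was left out. Of the 50-base words in Serpina3n transcripts, 6.9% also occur in other genes' transcripts, with the pseudogene Serpina3e-ps sharing more of them than any other gene, so a small part of its reads is uncertain. Serpina3f, a neighbouring member of the same protease inhibitor family, rose 6.62-fold after depletion, from 105 to 698 CPM (adjusted p = 0.000786).

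Hp (ENSMUSG00000031722, chromosome 8, 109575128 to 109579172) encodes haptoglobin, which binds free haemoglobin. FRC held 8.65, 40.4 and 26.2 CPM, steady-state RPF 2.58, 7.48 and 1.98, and depleted RPF 2.41, 0 and 1.25. Both RPF groups lay below all FRC libraries and overlapped each other. Hp was not called after depletion, with a log2 change of -1.72 (SE 1.23, 95% interval -4.50 to 1.06, adjusted p = 0.386). The difference of steady-state RPF from FRC was -2.64 (SE 1.25, adjusted p = 0.163), and it passed when these groups were fitted alone (adjusted p = 0.0446) or without depleted replicate 2 (0.0381). Depleted RPF was 20.5-fold below FRC (log2 difference -4.36, SE 1.36, adjusted p = 0.0342). That call was lost with the groups fitted alone (0.0533) and without FRC replicate 2 (0.0886), FRC replicate 3 (0.0658) or depleted replicate 3 (0.0933). The log2 difference was -5.30 without depleted replicate 1, -3.77 without depleted replicate 2 and -5.86 with limma-voom. Within steady-state RPF, replicate 2 was highest for Hp as it was for the neutrophil sum, and their relation was not tested.

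Lbp (ENSMUSG00000016024, chromosome 2, 158306493 to 158332852) encodes the protein that carries bacterial lipopolysaccharide to CD14. In FRC the 3 libraries held 16.4, 17.1 and 11.4 CPM, in steady-state RPF 1.23, 4.70 and 0.0662, and in depleted RPF 0.0287, 2.70 and 3.12. FRC was above every RPF library, and the RPF groups, each with 1 library near 0, covered the same range. The change after depletion was -0.0397 on the log2 scale with a 95% interval of -3.18 to 3.10 (adjusted p = 0.995), an interval wide enough to hold a large rise or a large fall. Its sign turned without steady-state replicate 2 (1.56) and without depleted replicate 1 (0.536). Against FRC, the log2 difference was -2.89 for steady-state RPF (adjusted p = 0.195) and -2.93 for depleted RPF (adjusted p = 0.157), with limma-voom giving adjusted p of 0.0441 and 0.0325.

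Ptx3 (ENSMUSG00000027832, chromosome 3, 66219910 to 66225805) encodes a long pentraxin that binds microbes and complement. In FRC it stood at 120, 115 and 167 CPM (mean 134 ± 28.8). Steady-state RPF had 1, 1 and 2 counts, and depleted RPF 3, 43 and 1 counts, or 0.0862, 1.16 and 0.0223 CPM. Depleted replicate 2 stood far above the other RPF libraries, replicate 1 slightly above the steady-state range and replicate 3 within it. The log2 change after depletion was 3.58 (SE 1.37, adjusted p = 0.101), with a ratio of scaled counts of 12.9 (counting interval 4.71 to 49.2). Without depleted replicate 2 the log2 change was 0.63 (adjusted p = 0.722). It passed in DESeq2 (0.0376) and without depleted replicate 3 (0.0323). FRC stood above steady-state RPF by a ratio of 4310 (counting interval 1680 to 15800; log2 difference -11.9 for RPF, SE 1.29, adjusted p = 0.000172), and the log2 difference was -12.5 without steady-state replicate 3. It stood 320-fold above depleted RPF (log2 difference -8.32, SE 1.04, adjusted p = 0.000319), and the log2 difference was -11.3 without depleted replicate 2, -7.72 without depleted replicate 3 and -9.76 with limma-voom. Saa3 and Ptx3, both with a C/EBP motif match near the start, were both almost without counts in steady-state RPF, and only Saa3 was called higher after depletion, although the difference between their changes was not tested.

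Cebpb (ENSMUSG00000056501, chromosome 2, 167688915 to 167690418) encodes C/EBP beta. Its libraries held 579, 838 and 802 CPM in FRC, 153, 118 and 181 in steady-state RPF, and 688, 619 and 588 in depleted RPF. Steady-state RPF lay below the 6 other libraries, and FRC and depleted RPF overlapped. The mean was 740 ± 140 CPM in FRC, 151 ± 31.2 in steady-state RPF and 632 ± 51.2 in depleted RPF. Depletion raised Cebpb by 2.07 on the log2 scale (SE 0.193, adjusted p = 0.000152), or 4.19-fold. Steady-state RPF were 4.91-fold below FRC (log2 difference -2.30, SE 0.194, adjusted p = 3.91e-05). Depleted RPF differed from FRC by -0.228 (95% interval -0.647 to 0.192, adjusted p = 0.378).

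Cebpd (ENSMUSG00000071637, chromosome 16, 15887286 to 15891031) encodes C/EBP delta. FRC held 993, 952 and 895 CPM, steady-state RPF 246, 174 and 158, and depleted RPF 1034, 1011 and 661. As for Cebpb, steady-state RPF lay below all other libraries, while depleted RPF lay on both sides of FRC with replicate 3 lowest. Means were 947 ± 48.8, 193 ± 47.0 and 902 ± 209 CPM. The rise after depletion was 2.23 on the log2 scale (SE 0.217, adjusted p = 0.000191), or 4.68-fold. FRC stood 4.91-fold above steady-state RPF (log2 difference -2.30 for RPF, SE 0.218, adjusted p = 7.79e-05). The difference of depleted RPF from FRC was -0.0702 (95% interval -0.540 to 0.400, adjusted p = 0.827), and it took the other sign under 3 alternatives. Per kilobase of transcript, both factors stood above 97.9% to 98.2% of tested genes in FRC and depleted RPF and above 91.2% (Cebpb) and 90.3% (Cebpd) in steady-state RPF. The ratio of the per-length level of Cebpd to that of Cebpb ran from 0.63 to 1.23 over the 9 libraries, with each group on both sides of 1.

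Both C/EBP genes lie across from an antisense gene. Cebpb shares 908 bases with Tmem189 and Cebpd 1808 bases with Spidr, and whether counting used strand is not given in the sources, so reads of each pair cannot be told apart there. Tmem189 stood at 10.2 CPM in FRC, 26.4 in steady-state RPF and 33.4 in depleted RPF. It was not called after depletion (adjusted p = 0.395) and was higher in steady-state RPF than in FRC (log2 difference 1.38, adjusted p = 0.00351), the opposite direction to Cebpb. Spidr stood at 30.8, 15.5 and 78.2 CPM and moved the same way as Cebpd, with a log2 change of 2.33 after depletion (adjusted p = 0.000263). Both antisense genes stayed far below the level of their partner in every group mean.

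**Figure D2:**
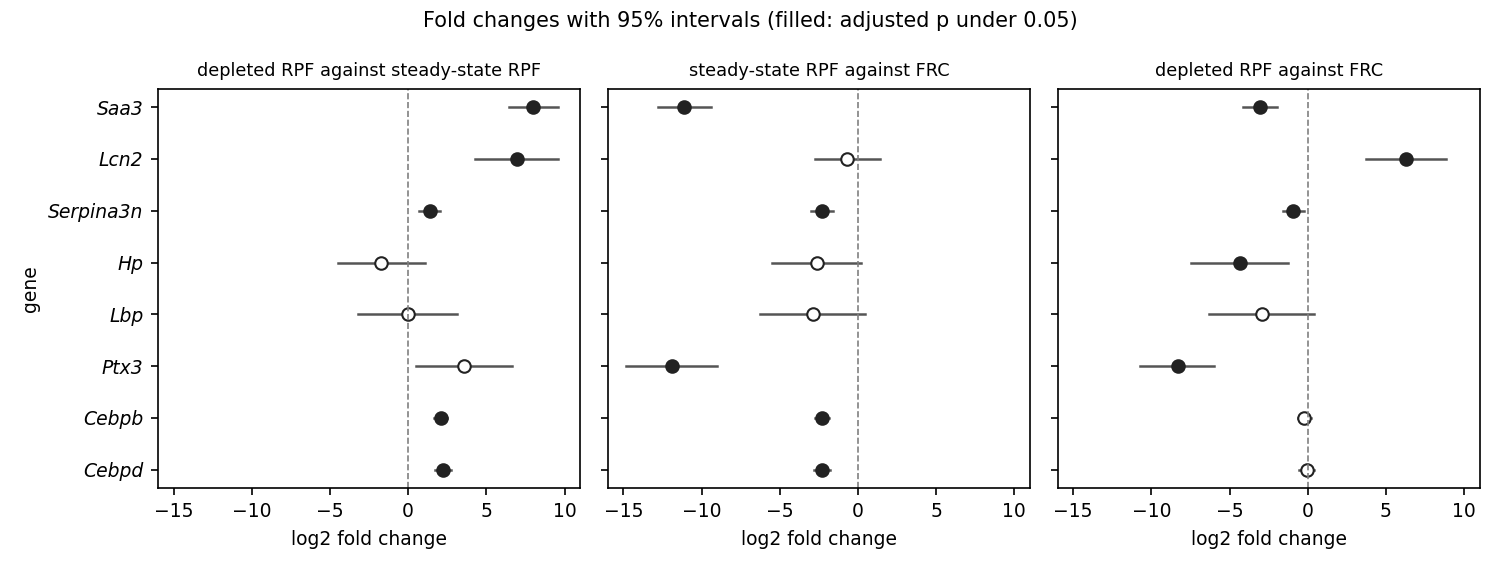
Log2 fold changes of the 8 genes in the 3 comparisons, with 95% intervals from edgeR's quasi-likelihood fit; filled points passed an adjusted p of 0.05. Lcn2 and Saa3 lie farthest to the right after depletion (6.94 and 8.01), and the intervals of Hp and Lbp in that comparison cover 0.

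Of 40 other genes listed with the acute phase response, 34 were in the table and 26 were tested. After depletion 6 of the 26 rose and 1 fell, against 11.1% and 9.96% of all tested genes, with a median log2 change of 0.232. The 6 were Cp, Tnfaip6, Mt1, Mt2, Steap4 and Serpina3f. Cp, which encodes the copper protein ceruloplasmin, rose 4.92-fold, from 529 ± 52.4 to 2602 ± 147 CPM (adjusted p = 1.03e-05), and was the most abundant of them. Tnfaip6, an inflammation-induced protein that binds hyaluronan and also PTX3, rose 8.12-fold, from 7.63 ± 3.07 to 62.1 ± 11.1 CPM (adjusted p = 0.000116). Mt1 and Mt2 encode metal-binding metallothioneins, and rose 5.44-fold and 22.4-fold (adjusted p = 0.00121 and 0.000223). Steap4, a metalloreductase, went from 8.47 ± 5.6 to 182 ± 81.4 CPM (adjusted p = 0.000663). Agt, the angiotensin precursor, was called lower, from 0.838 CPM to 0 counts. Serpina3g (276 to 364 CPM, adjusted p = 0.188) and Cd14 (3.05 to 1.14 CPM, adjusted p = 0.226) were not called. Itih3 (9.22 to 9.71 CPM, adjusted p = 0.96) also stayed uncalled. Itih4, Orm1, Orm3 and Serpina10, with means of 0.349 CPM or less in both RPF groups, were not called either.

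Against FRC, 12 of the 26 were lower in steady-state RPF and 1 was higher, with a median log2 difference of -2.11. The shares over all tested genes were 14.4% and 11.5%. Tnfaip6 was 225-fold lower, from 1719 ± 47.2 CPM in FRC (adjusted p = 1.08e-06). Serpina10, an inhibitor of coagulation factors, stood at 91.4 ± 12.2 CPM in FRC and 0.0455 ± 0.0162 in steady-state RPF (adjusted p = 9.78e-07). The gene called higher was Chil3, a chitinase-like protein of myeloid cells. Depleted RPF set against FRC gave 3 higher (Serpina3f, Cp and Serpina3g) and 9 lower, against 16.9% and 18.8% of all tested genes. Cp at 1604 ± 171 CPM in FRC was thus below its level in depleted RPF (log2 difference 0.698, adjusted p = 0.00163).

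Among 10 partners and relatives of the C/EBP factors, 9 were tested, and 4 rose after depletion: Trib1, Trib2, Atf4 and Nfil3. The share called higher over all tested genes was 11.1%. By edgeR 0 fell, and 1, the circadian factor gene Dbp, was lower at an unadjusted p under 0.05 (4.11 to 1.04 CPM, adjusted p = 0.11) and was called by DESeq2 but not by limma-voom. Trib1, a pseudokinase that directs C/EBP proteins to degradation, stood at 514 ± 64.2 CPM in FRC, 19.2 ± 4.76 in steady-state RPF and 187 ± 19.6 in depleted RPF, a 9.73-fold rise (adjusted p = 2.69e-05). Trib2, its relative, had another order, with 6.00 ± 1.59, 56.2 ± 8.5 and 224 ± 26.7 CPM, each step called as a rise. Atf4, a leucine zipper factor of the stress response that can pair with C/EBP proteins, went from 156 ± 21.1 to 443 ± 5.39 CPM after depletion (adjusted p = 6.25e-05). Cebpa and Cebpg, which encode C/EBP alpha and gamma, were low and uncalled. Cebpa stood at 15.7, 10.2 and 11.5 CPM and Cebpg at 53.2, 30.0 and 42.8 in FRC, steady-state RPF and depleted RPF. Cebpe, the granulocyte member, had 15 counts over the steady-state RPF libraries and 0 in the other groups.

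Of 16 genes listed as receptors and binding partners of the secreted members, 12 were tested. After depletion 2 of them (Tnfaip6 and Myd88) rose and 1 (Cd163) fell, shares close to the 11.1% and 9.96% of all tested genes, and the list shares Tnfaip6 and Cd14 with the acute phase list. Myd88, the adaptor of Toll-like and interleukin-1 receptors, rose 2.27-fold, from 80.7 ± 11.3 to 183 ± 7.34 CPM (adjusted p = 0.000271). Cd163, the macrophage receptor for haptoglobin bound to haemoglobin, went from 11.9 ± 5.71 to 0.171 ± 0.296 CPM (adjusted p = 0.0465). It is also one of the red pulp macrophage markers. Cd14, which takes up lipopolysaccharide from LBP, stood at 275 ± 17.5 CPM in FRC and at 3.05 ± 0.867 and 1.14 ± 1.2 in the RPF groups. Against FRC, steady-state RPF had 6 of the 12 lower and 1 (Cd163) higher, against 14.4% and 11.5% of all tested genes.

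Of 38 listed cytokine signalling genes that lie upstream of the acute phase response, 35 were tested. Of these, 17 rose and 5 fell after depletion, against 11.1% and 9.96% of all tested genes, with a median log2 change of 0.653. Il6 rose 92.5-fold, from 3.20 ± 1.48 to 294 ± 167 CPM (adjusted p = 9.27e-05), and stood at 1101 ± 112 in FRC. The NF-kB genes Rela, Nfkb1, Nfkb2, Relb, Nfkbia, Nfkbiz and Bcl3 were among those that rose. Nfkbiz, a cofactor of NF-kB for Lcn2 and other secondary response genes, stood at 1231 ± 212 CPM in FRC, 129 ± 61.9 in steady-state RPF and 378 ± 77.3 in depleted RPF (adjusted p = 0.00837 after depletion). Stat3 rose 1.53-fold (adjusted p = 0.00715) and its feedback inhibitor Socs3 2.57-fold (adjusted p = 0.00161). The 5 that fell were Lifr, Il6st, Tyk2, Nr3c1 and Tsc22d3. Il6st, the shared gp130 chain of interleukin-6 family receptors, went from 1306 ± 115 to 699 ± 78.9 CPM (adjusted p = 0.00163). Nr3c1 encodes the glucocorticoid receptor and fell 1.90-fold (adjusted p = 0.0197). Steady-state RPF had 18 of the 35 genes lower and 5 higher than FRC, against 14.4% and 11.5% of all tested genes.

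**Figure D3:**
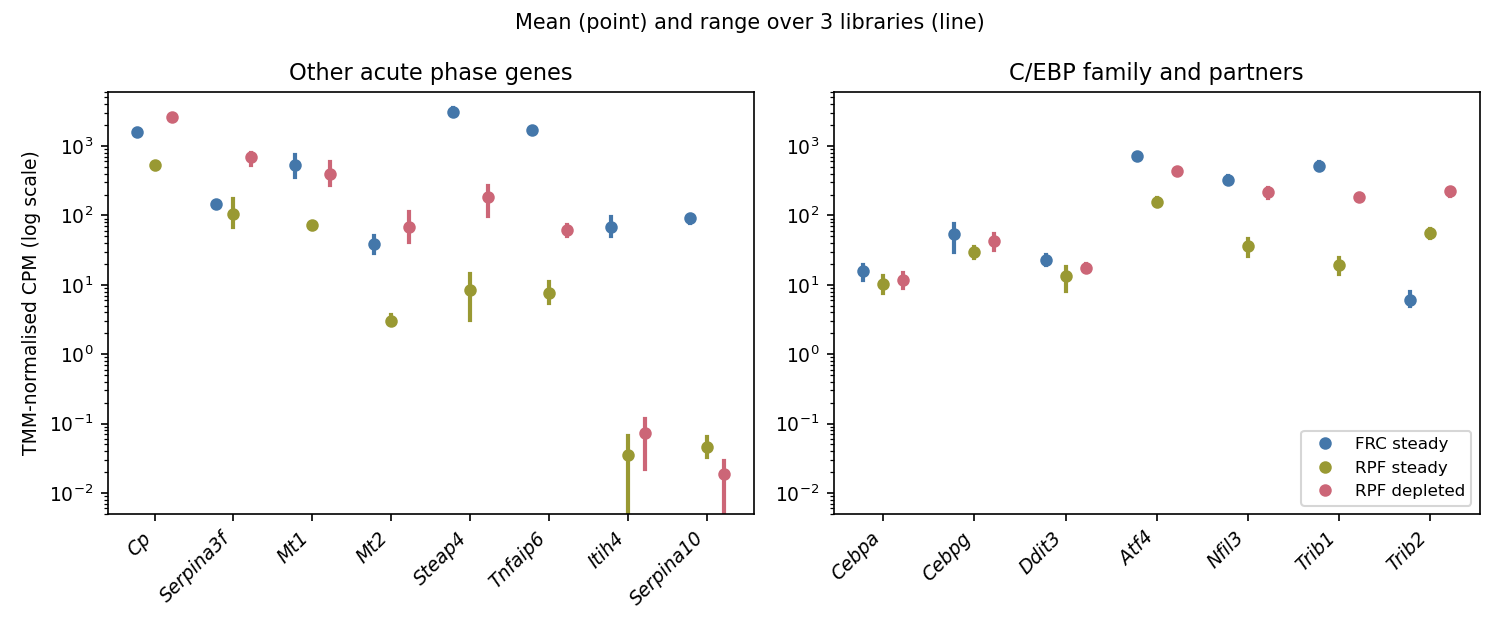
TMM-normalised CPM, on a log axis, of 8 other acute phase genes and 7 C/EBP family or partner genes, with the group mean as a point and the range over 3 libraries as a line. Cp and Trib2 have their highest mean in depleted RPF, and Tnfaip6 and Trib1 their highest in FRC and lowest in steady-state RPF.

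Other signals moved with the groups. In bulk RNA, fewer cells of a type and less RNA per cell cannot be told apart. The summed level of 20 immediate early and heat shock genes, which tissue digestion can induce, was 50502 to 57775 CPM in FRC, 6462 to 11127 in steady-state RPF and 10448 to 15594 in depleted RPF. FRC did not overlap either RPF group (exact two-sided permutation test, p = 0.1), the RPF groups overlapped (p = 0.2), and no gene of the list was at 0. Gene by gene, 7 of the 20 were called higher after depletion and 1 lower, against 11.1% and 9.96% of all tested genes. The median log2 change was 0.657, and DESeq2 called 10 higher. The 1 called lower was the heat shock gene Dnajb1 (2.06-fold, adjusted p = 0.0265). Hspa1a and Hspa1b were lower but uncalled (adjusted p = 0.0911 and 0.16), and Hspa8 was called higher (1.94-fold, adjusted p = 0.0412). Fos and Egr1, the most abundant of the list, were not called (adjusted p = 0.146 and 0.0722). Also among the 7 called higher were Ier3 (4.13-fold, adjusted p = 0.00223), Atf3 (3.03-fold, adjusted p = 0.0286) and Nr4a1 (2.95-fold, adjusted p = 0.00185). Several genes of this list thus rose together with the 5 members after depletion. FRC was high, and steady-state RPF low, for the sum as for Saa3, Serpina3n, Cebpb and Cebpd, and the part of this signal in the differences of the members was not tested. Mitochondrial genes took 1.98% to 2.24% of the counts in FRC and 0.519% to 0.72% in the RPF libraries. For 12 reticular fibroblast markers the sum was 81766.2 to 88551 CPM in FRC. It was 24993.1 to 27188.6 in steady-state RPF and 14509.8 to 16838.5 in depleted RPF. After depletion 6 of the 12 were called lower and 1, Pdgfrb, higher, against 9.96% and 11.1% of all tested genes. Against FRC, steady-state RPF had 9 lower and 1, again Pdgfrb, higher, against 14.4% and 11.5% of all tested genes. Sums of 9 erythroid markers were 0.596 to 99.2 CPM in FRC, 233 to 809 in steady-state RPF and 412 to 675 in depleted RPF. The part of either signal in the differences of the members was not tested.

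The sum of 15 red pulp macrophage markers was 281 to 335 CPM in steady-state RPF, 81.3 to 115 in depleted RPF and 81.0 to 85.9 in FRC. In depleted RPF it was mostly Mertk, at 89.3 CPM, and Fcgr1, C1qa, Cd5l, Adgre1 and Siglec1 were at 0 there. Mesothelial cells, which also express Wt1 and acute phase genes, were followed by 11 genes with sums of 11.8 to 29.0 CPM in steady-state RPF, 1.35 to 7.29 in depleted RPF and 23.9 to 36.6 in FRC. Msln, their defining gene, was at 0 in depleted RPF and also in FRC, and ran from 0 to 6.62 CPM in steady-state RPF. The steady-state sum was mostly Gpm6a, at 14.2 CPM, which stood at 3.31 in depleted RPF and 1.62 in FRC. In FRC the largest part was Krt18, at 11.2 CPM. Both sums were lower in the depleted RPF, where Lcn2, Saa3, Serpina3n, Cebpb and Cebpd were higher. Other sums were higher there. That of 6 monocyte markers was 493 to 625 CPM in depleted RPF, 282 to 439 in steady-state RPF and 133 to 196 in FRC, and it was mostly Plac8, which went from 302 to 534 CPM after depletion (adjusted p = 0.0374). Of the same list Lyz2 and Ms4a3 were called lower, Ms4a3 and Cx3cr1 being at 0 in depleted RPF. For 6 platelet and megakaryocyte markers the sum was 39.1 to 49.1 CPM in depleted RPF, 21.3 to 24.3 in steady-state RPF and 5.70 to 20.3 in FRC. In depleted RPF it was mostly Pf4, which rose 3.05-fold after depletion, from 12.8 to 38.9 CPM (adjusted p = 0.0224). Ppbp of the same list went the other way, from 5.16 to 1.01 CPM (adjusted p = 0.128). Itga2b stood at 3.84 and 3.32 CPM (adjusted p = 0.915). The part of these cells in the rise of the 5 members was not tested. The sum of 6 hepatocyte markers stayed at or below 12.4 CPM in every library. For 6 adipocyte markers the sum was 13.8 to 34.5 CPM in FRC, 0.331 to 0.869 in steady-state RPF and 2.73 to 7.90 in depleted RPF. This is the same order as Saa3, but different genes made the sum. In FRC it was mostly Plin1 (21.6 CPM, 0.138 in depleted RPF), in depleted RPF mostly Fabp4 (5.58 CPM, 3.77 in FRC). The part of this sum in the Saa3 values was not tested.

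**Figure D4:**
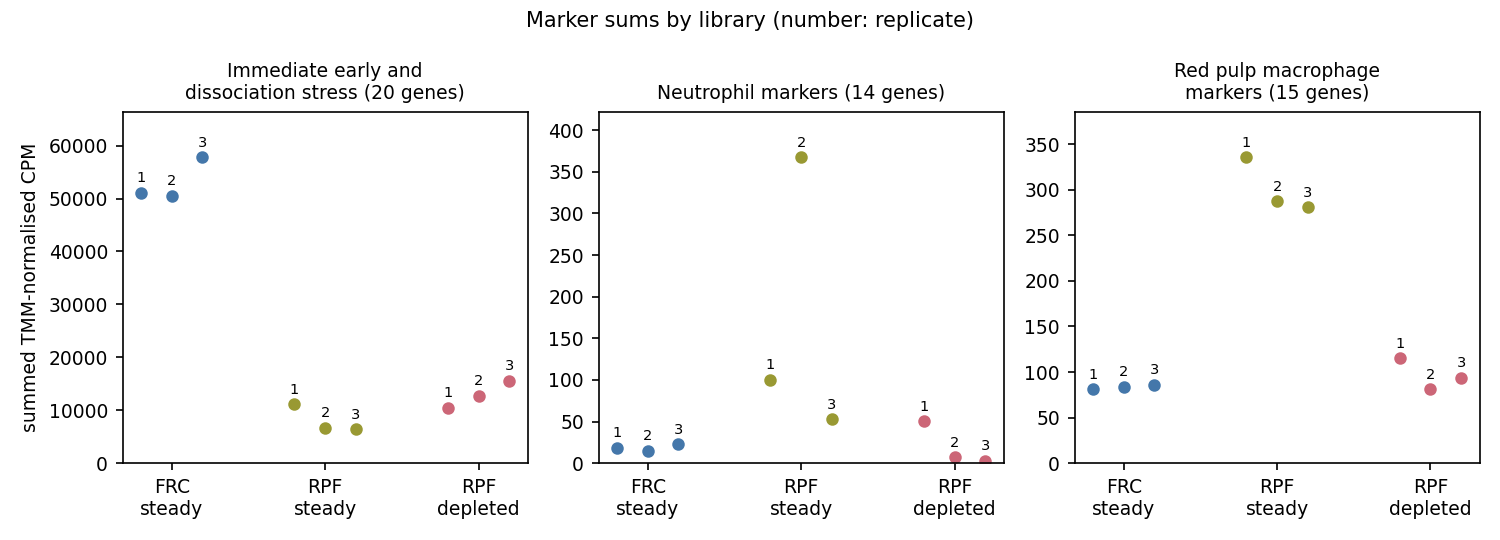
Summed TMM-normalised CPM, on linear axes from 0, of 20 immediate early and heat shock genes, 14 neutrophil markers and 15 red pulp macrophage markers, with each point a library numbered by replicate. Neutrophil and macrophage sums lie lower in depleted than in steady-state RPF, and the immediate early sum lies highest in FRC.

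The members also varied in how alike their levels ran over the 9 libraries, given here as Pearson's r of log2 CPM with no p, since libraries of a group share their condition. Cebpb and Cebpd were the most alike pair (r = 0.958). Saa3 followed Cebpb (0.938), Cebpd (0.937) and Serpina3n (0.934), while Lcn2 was further from Cebpd (0.609) and Cebpb (0.495). Hp ran with neither factor (0.0763 and -0.00565). Of 9756 genes with at least 10 CPM in a group, those closest to Cebpb were Csf3 (0.989), Rpl10a (0.988) and Alpl (0.986). Closest to Cebpd were Rassf1 (0.995), Marcksl1 (0.994) and Zc3h12a (0.993), and closest to Serpina3n were Azin1 (0.987), Prr16 (0.981) and Maff (0.977). Saa3 ran closest to Ppp2ca (0.991), Dram1 (0.989) and Ifrd1 (0.986), and Ptx3 to Notch2 (0.992), Tbx15 (0.990) and Gfpt2 (0.987). Lcn2, high in 1 group, had Atp5f1 (0.982), Amotl2 (0.980) and Mta1 (0.971) as nearest genes. Lbp was nearest to Mmp27 (0.988), Fgfr2 (0.962) and Zdhhc15 (0.961), and Hp to Scnm1 (0.958), Hyls1 (0.954) and 2610306O10Rik (0.954).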

How the data were processed

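PolyA RNA was sequenced from 9 libraries in 3 groups of 3, of 12 mice in all. The authors deposited raw read counts per Ensembl gene, with a transcript length in bases and mm10 coordinates, per the file headers. Per the submitters' processing notes, cutadapt 1.10, Bowtie2 2.2.8, STAR 2.5.3a, HTSeq 0.6.1p1 and the build mm10 were used; the sources used here give neither annotation release nor strand setting. The 24 other per-sample columns were not used.

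Counts were fitted in R 4.3.3 with edgeR 4.0.16: filterByExpr, TMM scaling, 1 term per group, robust quasi-likelihood, 6 residual degrees of freedom, two-sided, Benjamini-Hochberg over 15103 genes. CPM per kilobase used the deposited length. Marker sums were compared by exact two-sided permutation tests. Word sharing between transcripts was counted in GENCODE M21, and promoters came from RefSeq. Python 3.11.15 and matplotlib 3.10.9 drew the figures.

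FRC and steady-state RPF share mice, but the sources do not say which libraries do; the test treats them as independent. Counts of 0 in 9 libraries were found for 881 genes, and 12 symbols stood on more than 1 row. The members, gene lists and marker lists were chosen with earlier results of these data known. From each related list the rule took the 2 with the smallest p among called genes, in each of the first 2 comparisons, and uncalled genes above 100 CPM, from each marker list its 2 most abundant genes, and for each member the 3 genes most like it. Not every list or gene under this rule is given in the text, and further list genes are examples chosen after their values were seen. Alternatives were other scalings and filters, DESeq2 1.42.0, limma-voom (limma 3.58.1), no robust prior, a term for Y-linked reads, the compared groups alone and leaving out each library.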

Additional observations from a re-analysis of the deposited data

How the results depend on the processing

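Each change of the 8 genes was recomputed under 19 alternatives in each of 3 comparisons, except Ptx3 after depletion, which had 18 because it did not pass the filter when the RPF groups were fitted alone. Of the single-gene values, 432 kept direction and side of the threshold, 11 lost the call, 6 gained it and 6 took the other sign. Sign changes touched uncalled differences: Lbp after depletion ranged from -0.607 to 1.56 when 1 library was left out, with 0.536 without depleted replicate 1. Against FRC, depleted RPF had Cebpb at 0.187 by library sizes only, and Cebpd at 0.335 by library sizes only, at 0.0404 with a Y-linked term and at -0.175 to 0.115 with 1 library left out. Called members after depletion ranged from 4 (limma-voom) to 6 (DESeq2). Over all genes, 2009 were called higher after depletion by limma-voom and 1999 by DESeq2, against 1671 in the main fit. Called members lower in depleted RPF than in FRC numbered 4, and 2 to 4 with 1 library left out, the lowest without FRC replicate 2, FRC replicate 3 or depleted replicate 3. Over all genes, 1505 were lower after depletion, 2310 in DESeq2, and 968 to 1561 with 1 library left out, the lowest without steady-state RPF replicate 2. By library sizes only, the split of steady-state RPF against FRC went from 1734 higher and 2174 lower to 3935 and 1342, and depleted RPF against FRC from 2557 higher to 3933. That scaling moved the median log2 difference of all genes to 0.552 and 0.337 in these comparisons, and to -0.26 after depletion; the cause was not tested. With it, steady-state RPF differed from FRC by -10.5 for Saa3, -11.3 for Ptx3 and -1.71 for Cebpb on the log2 scale. No paired analysis was possible because the labels give no replicate numbers and do not say which FRC and RPF libraries share mice. FRC replicate 1 and steady-state RPF replicate 1 both lacked Y-linked reads, and the Y-linked term gives these libraries a level of their own. With it the members called stayed at 5 higher after depletion, 5 lower in steady-state RPF than in FRC, and 1 higher and 4 lower in depleted RPF than in FRC. Genes called higher after depletion numbered 1481 over all tested genes with this term, against 1671 in the main fit. Depth limits Saa3 and Ptx3 in steady-state RPF, where each library had 1 to 3 counts.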
